A study of Rattus norvegicus with 14 samples.

Results

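Rat pineal glands were set against pools of mixed tissue to find which transcripts the gland holds at a higher or a lower level than 15 pooled tissues. The study sampled Sprague-Dawley rats of 6 to 8 weeks under a 14:10 lighting cycle, and 8 of its 14 libraries enter this comparison. They are the 6 pineal gland libraries, taken at zeitgeber times (hours after lights on) ZT1, ZT7 and ZT13 and at the later ZT15, ZT19 and ZT23, and the 2 mixed tissue libraries, of which one is from ZT7, the middle of the day, and the other from ZT19, the middle of the night. Each pineal library was made from the glands of 10 animals. Each mixed library came from 3 animals and held equal amounts of RNA from 15 tissues: liver, kidney, lung, heart, small intestine, skeletal muscle, adrenal gland, pituitary, retina, spinal cord, cortex, midbrain, hindbrain, hypothalamus and cerebellum. The labels give no treatment beside the lighting. There was 1 library for each tissue and time, so the 6 times served as the replicates of the gland and the 2 times as those of the mixed tissue, and the spread between libraries holds both time of day and the difference between pools. The 6 retina libraries of the study are given beside some genes as levels, without a test.

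The pineal gland makes melatonin, the hormone of the night. Its main cells, the pinealocytes, take up tryptophan, hydroxylate and decarboxylate it to serotonin, acetylate serotonin at night under noradrenaline released by sympathetic nerves, and methylate the product to melatonin. Pinealocytes share a developmental origin with retinal photoreceptors, and in mammals they keep many photoreceptor genes although the gland itself is not directly light-sensitive.

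Levels are in FPKM, a count of fragments set relative to transcript length and to the total of the library, as the authors deposited them. The values give no counts, so the depth of the libraries is unknown. Summed FPKM lay between 163087 and 180522 in the pineal libraries and at 212634 and 191467 in the mixed libraries, and 8852 to 9336 genes reached 1 FPKM in a pineal library, against 11399 and 11225 in the mixed ones. Across all 16472 genes, which are not independent replicates, log2 values correlated at 0.975 to 0.994 among pineal libraries, at 0.987 between the 2 mixed libraries and at 0.769 to 0.792 between a pineal and a mixed library. Certain housekeeping genes had values near 0. Gapdh, a glycolytic enzyme, lay between 0.0715 and 0.555 FPKM in the 8 libraries. The entry of Gnas, the gene of the stimulatory G protein alpha subunit, lay between 0 and 0.494 FPKM in the pineal libraries and at 37.2 and 28.4 FPKM in the mixed ones. That entry covers only rn4 chr3:165213400-165214551, and which transcripts of the gene its values stand for is not known. A value at 0 is therefore given only as listed.

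Of 11426 genes that reached 1 FPKM in at least 2 of the 8 libraries, 2077 (18.2%) were higher in the pineal gland and 4882 (42.7%) were lower, each at an adjusted p under 0.05 in limma on log2(FPKM + 1). Together these were 60.9% of the genes tested, so passing the test was the usual outcome and the size of a difference says more than the call. Counts of called members in the gene lists below are to be read beside these shares, and say little about a list where near them. The split between higher and lower depends on the scale. The median difference of all genes tested was -0.25 (log2), and 29.8% of the calls were higher in the gland. After quantile normalization the median was 0.22 and 59.8% of the calls (4946 against 3325) were higher, and after median ratio scaling the median was -0.05 and 42.2% (3149 against 4306) were higher. Differences near these medians therefore carry no firm direction.

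Large differences were fewer and mostly downward. At least 4-fold higher on the log2(FPKM + 1) scale were 233 genes (2.04%), and at least 4-fold lower were 1432 genes (12.5%). The 2 groups did not overlap for 7466 genes (65.3%), and 6823 genes (59.7%) both passed the test and did not overlap. All 6 pineal values lay above both mixed values for 2316 genes (20.3%) and below both for 5150 genes (45.1%). Detection showed the same imbalance: 90 genes reached 1 FPKM in every pineal library and in neither mixed library, whereas 1749 genes reached it in both mixed libraries and in no pineal library. Leaving out the mixed library of ZT7 or of ZT19 brought the genes at least 4-fold lower to 468 or 599, with 9652 and 9668 genes tested, since a gene present in mixed tissue alone then has 1 library to reach 1 FPKM in and is not tested. Organ lists, and the lower members of pathway lists, lose tested genes in the same way. A gene under 1 FPKM in every pineal library entered the test through the mixed libraries alone. Its lower call was therefore close to set by the filter, and its adjusted p adds little to the levels. Among genes named below this holds for Slc6a4, Opn1mw, Rp1, Lrat, Rpe65, Nrl, Six6, Chrna4, Chrm2, Drd2, Rims1 and Dio1, among others.

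**Figure D1:**
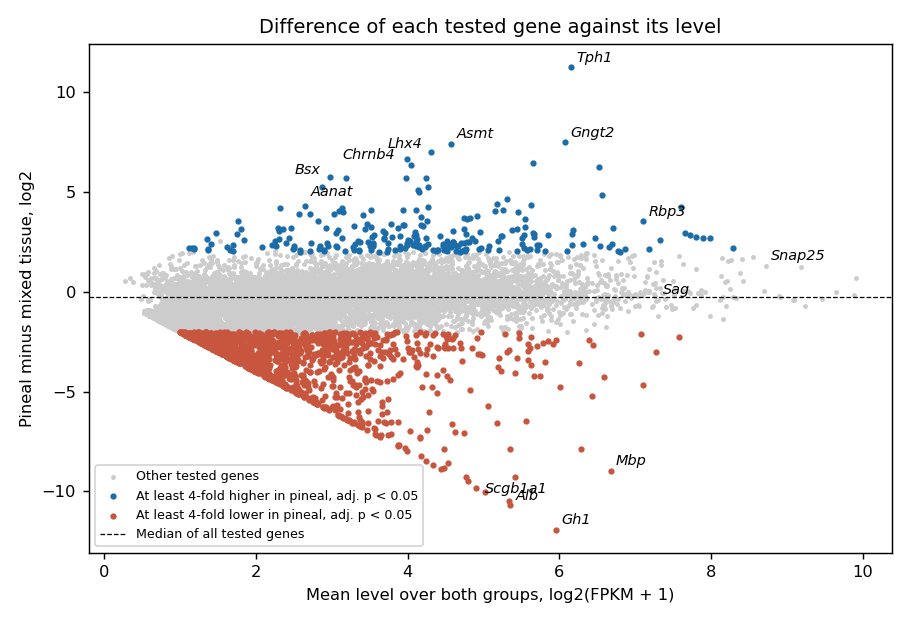
Difference between pineal gland and mixed tissue (vertical axis, log2) against the mean level over both groups (horizontal axis, log2(FPKM + 1)) for the 11426 genes tested. Blue points are the 233 genes at least 4-fold higher in the pineal gland, red points the 1432 genes at least 4-fold lower, grey points all others, and the dashed line is the median of all genes at -0.25. Tph1 stands highest, and Gh1 and Alb lie at the lower edge, where pineal values are listed at 0.

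The 12 largest differences upward belonged to enzymes of melatonin synthesis (Tph1, Asmt, Aanat), to the cone form of the light-signalling cascade (Gngt2, Gnat2, Pde6c, Gnb3), to the homeodomain factors Lhx4 and Bsx, and to Chrnb4, Col8a1 and Kcnh6. Chrnb4 encodes a nicotinic acetylcholine receptor subunit. Its lowest, median and highest pineal values were 105.1, 172.9 and 213.2 FPKM, against 0.715 and 0.494 FPKM in mixed tissue (difference 6.64 ± 0.27 SE, adjusted p = 2.79e-08). Col8a1 encodes a short-chain collagen of basement membranes. It ranged from 76.6 to 215.4 FPKM around a median of 145.3 in the gland, and lay at 1.59 and 1.69 FPKM in mixed tissue (5.69 ± 0.34, adjusted p = 4.31e-07). Kcnh6, a voltage-gated potassium channel of the ERG family, ranged from 93.6 to 133.0 FPKM with a median of 110.8, against 1.09 and 1.32 FPKM (5.68 ± 0.15, adjusted p = 1.53e-09). The genes were chosen among those whose groups do not overlap.

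**Figure D2:**
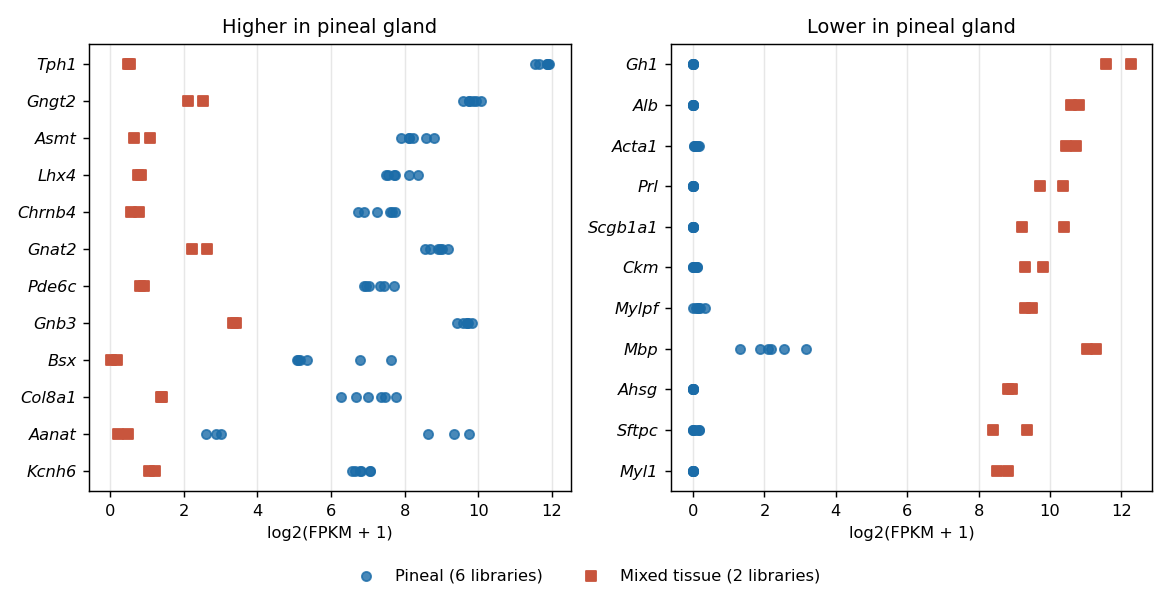
Levels of the 12 genes with the largest difference upward (left) and of 11 of the 12 largest downward (right) in each library, as log2(FPKM + 1); blue circles are the 6 pineal libraries and red squares the 2 mixed libraries. Genes whose groups overlap were left out by the choice. Aanat and Bsx have pineal libraries in separate clusters, and 6 of the genes on the right are listed at 0 in all pineal libraries.

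The enzymes that lead from tryptophan to melatonin were high in the gland. Of 21 listed genes of serotonin and melatonin synthesis, 20 were tested; 9 were higher and 6 lower, and their median difference was 0.91 beside -0.25 for all genes. Without the mixed library of ZT7 6 were higher and 2 lower, and without that of ZT19 5 and 3. Tph1, tryptophan hydroxylase, is the first step (gene ID 24848, rn4 chr1:97186071-97207551). It ranged from 2968 to 3848 FPKM with a median of 3704 in the pineal libraries, and lay at 0.472 and 0.398 FPKM in mixed tissue. Its mean was 3539 ± 360 FPKM (SD, n = 6) in the gland and 0.435 ± 0.0519 FPKM (SD, n = 2) in mixed tissue, a difference of 11.26 ± 0.16 (SE, adjusted p = 9.9e-11) and the largest upward difference among the genes tested. Ddc, the decarboxylase that yields serotonin, ranged from 129.6 to 216.8 FPKM with a median of 172.5, against 9.38 and 10.7 FPKM (3.98 ± 0.19, adjusted p = 9.5e-08). Asmt, the last enzyme of the pathway (gene ID 246281, rn4 chr12:16811892-16817186), ranged from 237.0 to 443.7 FPKM with a median of 287.5, against 1.11 and 0.567 FPKM (7.42 ± 0.24, adjusted p = 4.92e-09). None of these 3 genes showed overlap between the groups, which was so for 65.3% of all genes tested. Tph1 and Asmt were chosen among such genes.

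Aanat, the acetyltransferase before Asmt (gene ID 25120, rn4 chr10:106709371-106713683), differed among the pineal libraries themselves. It stood at 396, 7.05, 6.35, 5.13, 650 and 857 FPKM in the gland, in order of time from ZT1 to ZT23, against 0.157 and 0.409 FPKM in mixed tissue at ZT7 and ZT19. The 3 low libraries were still over 12 times the higher mixed value. Its mean was 320 ± 374 FPKM (SD, n = 6) in the gland and 0.283 ± 0.179 FPKM (SD, n = 2) in mixed tissue, and the difference of 5.69 carried an SE of 2.15 (adjusted p = 0.0448). The adjusted p ran from 0.0102 to 0.176 over the alternatives, and the call was lost without the pineal library of ZT1, ZT19 or ZT23, without either mixed library, with a pseudocount of 5 FPKM and with no filter on low values, although no pineal value came near a mixed one.

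Genes of the tetrahydrobiopterin cofactor and of serotonin breakdown and transport lay on both sides. Gch1, which makes the tetrahydrobiopterin precursor that Tph1 needs, ranged from 66.3 to 132.3 FPKM with a median of 106.7 in the gland, against 2.46 and 1.82 FPKM (5.02 ± 0.28, adjusted p = 2.17e-07). Pcbd1, which recycles that cofactor, averaged 104 ± 15.6 FPKM in the gland and 22.3 ± 0.466 FPKM in mixed tissue (2.16 ± 0.17, adjusted p = 2.51e-06). Other enzymes of the same cofactor were lower: Qdpr averaged 21.3 ± 1.93 against 48.8 ± 14.0 FPKM (-1.14, adjusted p = 0.000184), and Spr averaged 3.42 ± 1.22 against 6.96 ± 0.378 FPKM (-0.89, adjusted p = 0.0152). Gchfr, the feedback regulator protein of Gch1, averaged 0.232 ± 0.132 FPKM in the gland and 8.18 ± 1.88 FPKM in mixed tissue (-2.89 ± 0.14, adjusted p = 8.63e-08). The 2 monoamine oxidases, which degrade serotonin and other amines, differed in opposite directions. Maob averaged 20.8 ± 5.35 FPKM in the gland and 8.51 ± 4.83 FPKM in mixed tissue (1.25, adjusted p = 0.00974), and Maoa averaged 2.51 ± 0.678 against 15.3 ± 0.254 FPKM (-2.23, adjusted p = 7.85e-06). Slc6a4, the serotonin transporter of nerve endings, lay at 0.0145 to 0.0446 FPKM in the gland and at 6.06 and 6.00 FPKM in mixed tissue (-2.77, adjusted p = 5.18e-10).

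Windows of 250 bases before the annotated start are shown for Tph1 and Asmt, the enzymes of both ends of the pathway, and for Aanat, since all 3 belong to melatonin synthesis and are among the 12 largest differences upward. The sequences are from RefSeq (GRCr8) and read 5′ to 3′ on the gene's strand. Capitals mark TAATCC or TAATCT on either strand (GGATTA and AGATTA on the other), which are core letters bound by the photoreceptor factors Crx and Otx2, and TGACGTCA, the cAMP response element, which reads the same on both strands. The Tph1 window is chr1:106314629-106314878 on the minus strand, the Aanat window chr10:102326073-102326322 on the plus strand, and the Asmt window chr12:21423337-21423586 on the minus strand.
Tph1: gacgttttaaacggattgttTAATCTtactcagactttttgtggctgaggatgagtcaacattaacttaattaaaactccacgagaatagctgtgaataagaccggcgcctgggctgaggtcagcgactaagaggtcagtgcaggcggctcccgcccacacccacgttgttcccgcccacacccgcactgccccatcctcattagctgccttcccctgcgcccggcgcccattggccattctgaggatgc
Aanat: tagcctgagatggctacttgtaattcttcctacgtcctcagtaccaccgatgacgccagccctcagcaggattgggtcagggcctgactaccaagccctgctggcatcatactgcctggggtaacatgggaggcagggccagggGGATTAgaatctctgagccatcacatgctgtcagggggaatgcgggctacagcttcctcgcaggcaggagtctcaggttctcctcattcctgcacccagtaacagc
Asmt: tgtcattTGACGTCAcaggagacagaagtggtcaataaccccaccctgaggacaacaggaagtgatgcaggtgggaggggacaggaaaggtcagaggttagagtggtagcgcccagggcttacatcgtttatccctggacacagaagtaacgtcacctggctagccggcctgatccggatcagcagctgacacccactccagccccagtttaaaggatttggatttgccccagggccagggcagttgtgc
The Tph1 window holds 1 match to the core ending in CT. The Aanat window holds 1 match to the core ending in CC, read on the other strand, and the Asmt window 1 cAMP response element. Such letters are not rare. TAATCC was found in 6.34% of 33469 windows of all genes, TAATCT in 7.72% and TGACGTCA in 1.59%. A match describes letters in this window and not a bound site.

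In the pathway through which noradrenaline acts on pinealocytes, 24 of 27 listed genes of adrenergic and cAMP signalling were tested. Of these 5 were higher and 8 lower, with a median difference of 0.05, beside 18.2% higher and 42.7% lower among all genes tested. The lower ones include Gnas, whose values near 0 in the gland are given above. Without the mixed library of ZT7 3 were higher and 3 lower, and without that of ZT19 4 and 3. After quantile normalization 9 were higher and 6 lower, and after median ratio scaling 7 and 6, so the list as a whole had no direction. The receptors that pinealocytes are known to use were among the higher genes. Adrb1, the beta-1 adrenergic receptor, ranged from 32.6 to 50.1 FPKM with a median of 37.8 in the gland, against 2.62 and 1.19 FPKM (3.83 ± 0.20, adjusted p = 1.74e-07). Adra1b, an alpha-1 receptor that potentiates the cAMP response, ranged from 19.3 to 65.1 FPKM with a median of 31.7, against 3.78 and 4.29 FPKM (2.71 ± 0.43, adjusted p = 0.000405). Neither gene overlapped between the groups, which was so for 65.3% of all genes tested.

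Adenylyl cyclases, which make cAMP, were divided. Adcy2 averaged 49.5 ± 20.6 FPKM in the gland and 11.8 ± 0.0197 FPKM in mixed tissue (1.85, adjusted p = 0.00535). Adcy3 averaged 0.460 ± 0.153 against 4.74 ± 0.845 FPKM (-1.97, adjusted p = 6.59e-07), Adcy5 2.52 ± 0.382 against 11.5 ± 1.89 FPKM (-1.82, adjusted p = 3.43e-06), and Adcy6 6.14 ± 0.842 against 13.01 ± 0.414 FPKM (-0.98, adjusted p = 0.000201). The regulatory subunits of protein kinase A were divided too. Prkar2b, a type II subunit, averaged 29.0 ± 9.89 FPKM against 12.3 ± 1.09 FPKM (1.10, adjusted p = 0.0189), whereas Prkar1b, a type I subunit, averaged 18.5 ± 6.20 against 54.6 ± 7.49 FPKM (-1.57, adjusted p = 0.00128).

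Phototransduction genes were divided, and members of both the rod and the cone form lay on both sides. In a photoreceptor, an opsin activates the G protein transducin, transducin activates a cGMP phosphodiesterase, and cGMP-gated channels close; rods and cones use separate genes for most steps. Of 37 listed genes 33 were tested, 16 were higher in the gland and 10 lower, with a median difference of 0.73. Without the mixed library of ZT7 16 of 28 were higher and 4 lower (median 1.70), and without that of ZT19 14 and 4 (0.92). The largest upward differences were those of cone genes of transducin and of the phosphodiesterase. Gnat2, the cone transducin alpha subunit, ranged from 377.1 to 573.5 FPKM with a median of 485.0 in the gland, against 5.25 and 3.66 FPKM (6.45 ± 0.19, adjusted p = 2.58e-09). Gnb3, the cone beta subunit, ranged from 689.3 to 910.2 FPKM with a median of 826.7, against 9.63 and 9.23 FPKM (6.28 ± 0.14, adjusted p = 6.37e-10). Gngt2, the cone gamma subunit, ranged from 764.6 to 1068 FPKM with a median of 890.8, against 4.802 and 3.371 FPKM (7.49 ± 0.17, adjusted p = 6.78e-10). Pde6c, the cone phosphodiesterase catalytic subunit, ranged from 117.9 to 209.9 FPKM with a median of 144.6, against 0.748 and 0.908 FPKM (6.36 ± 0.22, adjusted p = 7.46e-09). All pineal values of these 4 genes were far above the mixed ones. In the retina libraries their levels averaged 35.4, 56.6, 29.2 and 6.56 FPKM in the same order.

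Opn1sw, the short-wavelength cone opsin, averaged 26.3 ± 13.6 FPKM in the gland and 1.06 ± 0.346 FPKM in mixed tissue (3.57 ± 0.48, adjusted p = 0.000137). Not every cone gene was high. Opn1mw, the middle-wavelength opsin, lay between 0 and 0.114 FPKM in the gland and at 2.30 and 1.28 FPKM in mixed tissue (-1.41, adjusted p = 5.06e-06). Pde6h, the inhibitory subunit of the cone phosphodiesterase, averaged 0.545 ± 0.226 FPKM against 1.58 ± 0.547 FPKM (-0.73, adjusted p = 0.00422).

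The rod forms of the transducin alpha subunit and of the phosphodiesterase were nearly absent from the gland. Gnat1, the rod transducin alpha subunit, ranged from 0.944 to 1.601 FPKM with a median of 1.39, against 318 and 300 FPKM (-7.07 ± 0.14, adjusted p = 3.89e-10). Pde6a and Pde6b, the rod phosphodiesterase subunits, averaged 1.31 ± 0.238 and 0.365 ± 0.203 FPKM in the gland, and 51.2 ± 7.67 and 38.1 ± 8.64 FPKM in mixed tissue (-4.50 and -4.83, adjusted p = 5.72e-09 and 1.07e-08). Rcvrn, recoverin, which regulates the opsin kinase, averaged 1.14 ± 0.456 against 84.4 ± 7.57 FPKM (-5.35 ± 0.22, adjusted p = 2.77e-08).

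Some other genes named for rods were high in the gland and some were not. Gngt1, the rod transducin gamma subunit, averaged 669 ± 227 FPKM in the gland and 105 ± 48.3 FPKM in mixed tissue (2.68 ± 0.37, adjusted p = 0.000174). Cngb1, the beta subunit of the rod cGMP-gated channel, averaged 65.0 ± 7.60 against 10.6 ± 1.10 FPKM (2.50 ± 0.14, adjusted p = 2.68e-07), while its partner Cnga1 averaged 11.2 ± 5.24 against 24.2 ± 2.84 FPKM (-1.18, adjusted p = 0.0413). Grk1, the opsin kinase, averaged 88.5 ± 13.1 against 14.3 ± 4.34 FPKM (2.56 ± 0.19, adjusted p = 1.98e-06). Sag, rod arrestin or S-antigen, stood at 46.9, 145, 314, 350, 137 and 60.6 FPKM from ZT1 to ZT23 in the gland, against 224 and 144 FPKM in mixed tissue at ZT7 and ZT19. The groups overlapped, and the difference of -0.40 ± 0.73 did not pass the test (adjusted p = 0.666, 0.189 to 0.960 over the alternatives).

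**Figure D3:**
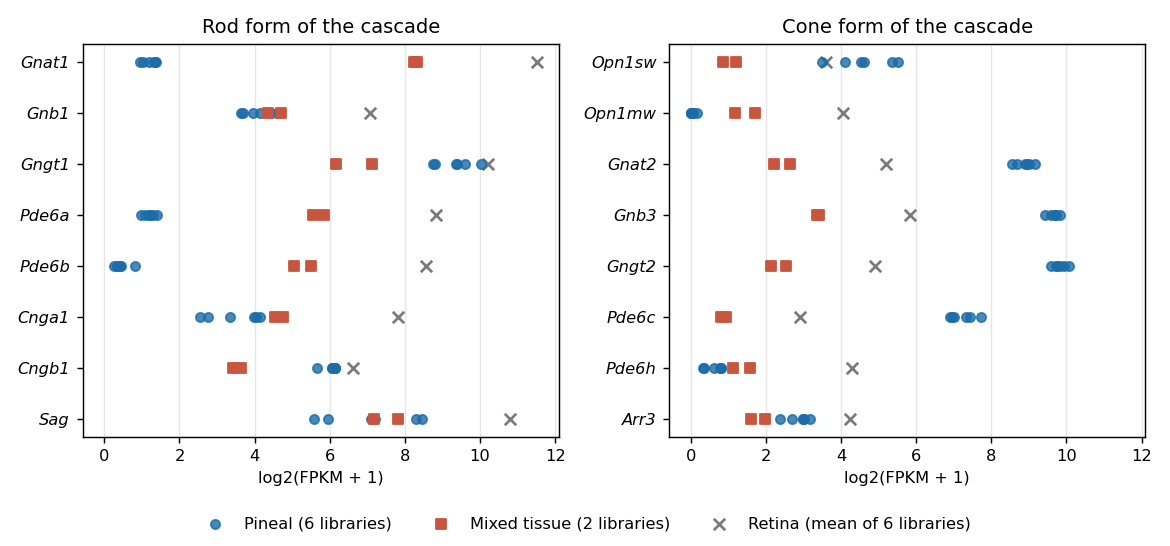
Levels of rod (left) and cone (right) genes of the light-signalling cascade in each library, as log2(FPKM + 1); blue circles are the 6 pineal libraries, red squares the 2 mixed libraries, and grey crosses the mean of the 6 retina libraries. Gnat2, Gnb3, Gngt2 and Pde6c lie above both other tissues in the gland, Gnat1, Pde6a and Pde6b lie far below the mixed tissue, and Sag overlaps with it.

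The mixed libraries held retina, so the levels they hold of these genes come in part from it. For 24 photoreceptor genes at 100 FPKM or more in every retina library, the mixed level was 8.57% to 17.6% of the retina level at ZT7 (median 10.8%) and 7.02% to 17.0% at ZT19 (median 9.89%), beside an equal share of 6.67% for 1 of 15 tissues. Sag, whose levels in gland and mixed tissue overlapped, lay at 1660.0 to 1989.6 FPKM in the retina libraries.

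Of 22 listed genes of photoreceptor structure and the visual cycle 20 were tested, 8 were higher and 6 lower, with a median of 0.17. Without the mixed library of ZT7 8 of 16 were higher and 2 lower (median 1.15), without that of ZT19 7 and 3 (0.56), and with a filter of 5 FPKM 8 of 14 were higher and 3 lower (1.56). The higher ones included proteins of the matrix around photoreceptors. Rbp3, the interphotoreceptor retinoid-binding protein, ranged from 363.6 to 603.0 FPKM with a median of 465.1 in the gland, against 45.1 and 34.7 FPKM (3.53 ± 0.23, adjusted p = 7.76e-07). Impg1, a matrix proteoglycan, ranged from 101.8 to 127.3 FPKM with a median of 109.8, against 7.37 and 6.77 FPKM (3.80 ± 0.11, adjusted p = 2.5e-09), and its relative Impg2 averaged 103 ± 31.9 against 13.2 ± 0.545 FPKM (2.82, adjusted p = 2.2e-05). Outer segment genes were divided. Rom1, a disc membrane protein, averaged 318 ± 92.4 against 71.1 ± 30.2 FPKM (2.16, adjusted p = 0.000375). Rp1, a microtubule protein of the outer segment, ranged from 0.0244 to 0.119 FPKM, against 29.2 and 27.8 FPKM (-4.78 ± 0.08, adjusted p = 1.94e-10). Abca4, the retinoid flippase of disc membranes, ranged from 0.178 to 1.16 FPKM, against 12.22 and 12.005 FPKM (-3.17 ± 0.21, adjusted p = 7.91e-07). Lrat and Rpe65 serve the visual cycle in the pigment epithelium. Lrat lay between 0 and 0.0462 FPKM in the gland, against 1.77 and 2.18 FPKM (-1.55, adjusted p = 2.59e-08), and Rpe65 between 0 and 0.0793 FPKM, against 1.17 and 3.40 FPKM (-1.58, adjusted p = 0.000108). The Rpe65 call was lost after quantile normalization.

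Transcription factors of pineal and photoreceptor development formed a further contrast. Of 28 listed genes 22 were tested, 11 were higher and 8 lower, with a median of 0.93. The lower calls rest on both mixed libraries. Without that of ZT7 or ZT19 15 genes were tested, 10 or 9 were higher and the lower ones were no longer called (medians 3.17 and 3.01), and with a filter of 5 FPKM 11 of 16 were higher and 3 lower (2.79). Lhx4, a LIM homeodomain factor, ranged from 178.5 to 328.4 FPKM with a median of 211.1 in the gland, against 0.687 and 0.798 FPKM (7.03 ± 0.23, adjusted p = 5.53e-09). Crx, the cone-rod homeobox factor that activates photoreceptor and pineal genes, ranged from 159.7 to 275.2 FPKM with a median of 200.2, against 25.2 and 22.4 FPKM (3.09 ± 0.22, adjusted p = 1.41e-06). Otx2, which acts upstream of Crx, ranged from 109.9 to 211.9 FPKM with a median of 141.6, against 15.2 and 12.9 FPKM (3.27 ± 0.22, adjusted p = 9.27e-07). None of the 3 overlapped between the groups, which was so for 65.3% of all genes tested, and Lhx4 was chosen among such genes.

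Bsx, a homeodomain factor needed for pineal development in frog and zebrafish, stood at 33.7, 34.7, 32.7, 39.5, 196 and 110 FPKM from ZT1 to ZT23 in the gland, against 0.145 and 0.0261 FPKM in mixed tissue (5.74 ± 0.67, adjusted p = 5.21e-05). The libraries of ZT19 and ZT23 stood above the other 4, and it was listed at 0 in all retina libraries. Neurod4, a basic helix-loop-helix factor, ranged from 89.6 to 226.1 FPKM with a median of 198.6, against 7.66 and 6.24 FPKM (4.38 ± 0.36, adjusted p = 4.47e-06). Rxrg, a retinoid X receptor, averaged 66.3 ± 13.7 against 3.91 ± 0.279 FPKM (3.75 ± 0.20, adjusted p = 1.75e-07). Mitf, known as the master factor of pigment cells, averaged 64.4 ± 20.2 against 2.71 ± 0.0450 FPKM (4.09 ± 0.26, adjusted p = 6.57e-07).

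Related factors lay on opposite sides. Isl2 ranged from 21.3 to 71.2 FPKM with a median of 53.8 in the gland, against 0.171 and 0.208 FPKM (5.24 ± 0.43, adjusted p = 4.29e-06), while Isl1, the other islet factor, averaged 0.147 ± 0.130 FPKM against 2.67 ± 0.0684 FPKM (-1.68, adjusted p = 7.51e-07). Nrl, the leucine zipper factor that directs photoreceptors to the rod fate in mouse, lay between 0 and 0.208 FPKM in the gland and at 20.6 and 10.3 FPKM in mixed tissue (-3.87 ± 0.20, adjusted p = 1.59e-07). Six3 and Six6, factors of the retina and forebrain, were also lower. The difference was -2.18 for Six3 (adjusted p = 1.22e-08), and Six6 was listed at 0 in all 6 pineal libraries against 3.59 and 3.41 FPKM in mixed tissue (adjusted p = 1.09e-09).

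The Crx window itself holds the letters that its product is known to bind, and is shown for that reason: RefSeq (GRCr8) chr1:85681853-85682102 on the minus strand, 5′ to 3′, with each GGATTA in capitals, which is the core ending in CC as read on the other strand.
Crx: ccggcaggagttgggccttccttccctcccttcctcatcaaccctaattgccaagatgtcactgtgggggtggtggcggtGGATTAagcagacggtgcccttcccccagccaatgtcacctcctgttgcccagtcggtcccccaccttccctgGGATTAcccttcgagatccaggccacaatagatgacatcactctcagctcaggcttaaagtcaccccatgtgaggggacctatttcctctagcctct
Among the 41 genes described next as over 15-fold higher, 29 had a window in this table. TAATCC was in 3 of the 29 (10.3%, against 6.34% of all windows), TAATCT in 2, those of Tph1 and Cplx3 (6.9%, against 7.72%), and TGACGTCA in 2, those of Asmt and Isl2 (6.9%, against 1.59%). These are descriptions of a few windows.

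As a round threshold the number of pooled tissues, 15, was used, although the photoreceptor genes above show a share in the mixture higher than 1 in 15. The lowest pineal value was over 15 times the higher mixed value for 41 genes (0.359%), called here over 15-fold higher. They held 4.84% to 5.14% of all FPKM in the pineal libraries and 0.0391% and 0.0416% in the mixed ones. This gap follows from how the genes were chosen, and Tph1 alone held 1.82% to 2.15% in the pineal libraries. Of the 41, 29 averaged 20 FPKM or more in the gland and 21 were under 1 FPKM in both mixed libraries. Prtg at 15.2 times and A2m at 15.4 times lay just inside, and Impg1 at 13.8 times and Aanat at 12.5 times just outside. Further genes were listed at 0 in both mixed libraries and have no ratio. Of 6 such genes 4 passed the test: Ins1, Rnase1l2, Rhox12 and Calhm1. Calhm1, a calcium homeostasis channel, ranged from 6.04 to 26.3 FPKM in the gland, and Ins1, an insulin gene, from 1.27 to 5.63 FPKM. Pancreas is not among the 15 pooled tissues.

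Among abundant genes of this group the steadiest over the 6 pineal libraries were Tph1, Gnb3, Esm1, Irs1 and A2m. Esm1, a secreted proteoglycan of endothelial cells, ranged from 106.8 to 130.8 FPKM with a median of 117.6 in the gland, against 2.18 and 2.06 FPKM (5.24 ± 0.10, adjusted p = 3.46e-10). Irs1, an adaptor of insulin and insulin-like growth factor receptors, ranged from 64.5 to 82.2 FPKM with a median of 68.6, against 3.31 and 3.02 FPKM (4.11 ± 0.12, adjusted p = 2.36e-09). A2m, the protease inhibitor alpha-2-macroglobulin, ranged from 128.5 to 179.3 FPKM with a median of 161.3, against 8.36 and 8.20 FPKM (4.10 ± 0.13, adjusted p = 5.29e-09).

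Enzymes of lipid mediators were also in this group. Alox15, a lipoxygenase of arachidonic and linoleic acid, ranged from 358.7 to 727.9 FPKM with a median of 496.8, against 14.2 and 19.5 FPKM in mixed tissue (4.85, adjusted p = 4.31e-07). Pla2g5, a secreted phospholipase, ranged from 65.4 to 93.3 FPKM with a median of 88.0, against 3.39 and 3.42 FPKM (4.25, adjusted p = 8.74e-09). Developmental factors were found at low levels: Pax3 at 3.26 to 5.02 FPKM against 0.0662 and 0.0975 FPKM, Alx4 at 3.41 to 4.73 FPKM against 0.113 and 0.0145 FPKM, and the growth factor Gdf7 at 2.41 to 12.3 FPKM against 0 and 0.0289 FPKM. Slc4a5, a bicarbonate transporter, had a median of 43.7 FPKM against 1.82 and 1.67 FPKM, and Nphs1, the nephrin of kidney podocytes, 20.8 FPKM against 0.615 and 0.477 FPKM.

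Receptors for acetylcholine showed 1 pair of subunits at high levels and most of the rest at low ones. Of 21 listed genes 11 were tested, 3 were higher and 7 lower, with a median of -1.37, and after quantile normalization 4 were higher and 5 lower. The sign of that median rests on genes at low levels: with a filter of 5 FPKM 4 genes were tested, 3 were higher and 1 lower (median 2.29), and without the mixed library of ZT7 or ZT19 4 were tested and 2 were higher (2.38 and 2.32). Beside Chrnb4, the alpha-3 subunit gene Chrna3 ranged from 26.3 to 58.1 FPKM with a median of 35.5 in the gland, against 1.14 and 0.960 FPKM (4.21 ± 0.25, adjusted p = 3.65e-07); the 2 subunits together form the ganglionic type of receptor. Chrna4, which forms the main brain type, lay between 0.0140 and 0.134 FPKM in the gland and at 6.11 and 4.91 FPKM in mixed tissue (-2.61, adjusted p = 7.65e-09). The muscarinic receptor Chrm2 lay between 0 and 0.106 FPKM, against 5.99 and 5.53 FPKM (-2.69, adjusted p = 1.96e-09).

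Of 18 listed dopamine, melatonin, peptide and glutamate receptors 9 were tested and 7 were lower, with a median of -1.77; after quantile normalization 5 were lower and 1 was higher, and without the mixed library of ZT7 or ZT19 4 of 7 were lower (medians -0.99 and -1.04). Drd2, a dopamine receptor of the striatum and pituitary, lay at 0.0250 to 0.123 FPKM in the gland, against 5.78 and 6.23 FPKM (-2.73, adjusted p = 1.32e-09). Drd4, another dopamine receptor, stood at 34.1, 2.32, 1.40, 0.879, 27.5 and 55.8 FPKM from ZT1 to ZT23, against 2.64 and 5.17 FPKM, and did not pass (1.04 ± 1.36, adjusted p = 0.537). Its pineal values lay on both sides of the mixed ones. Gria2, Grm3 and Grm5, receptors of glutamate, were lower (-2.98, -2.30 and -2.20, adjusted p = 6.56e-08, 1.63e-06 and 7.65e-09).

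Pinealocytes hold synaptic ribbons and vesicles, and 24 of 25 listed genes of these structures were tested, 9 being higher and 9 lower with a median of 0.14. Complexins, which clamp and promote vesicle fusion, were divided by type. Cplx3, a complexin of ribbon synapses, ranged from 144.8 to 225.5 FPKM with a median of 209.0 in the gland, against 8.23 and 5.73 FPKM (4.65 ± 0.19, adjusted p = 2.7e-08), and its relative Cplx4 averaged 114 ± 14.4 against 26.6 ± 3.96 FPKM (2.06, adjusted p = 1.27e-06). Cplx1 and Cplx2, the complexins of conventional synapses, averaged 0.811 ± 0.664 and 0.814 ± 0.410 FPKM in the gland, and 91.9 ± 17.6 and 33.0 ± 6.96 FPKM in mixed tissue (-5.73 and -4.24, adjusted p = 1.47e-07 and 1.83e-07). Syntaxins followed the same kind of split: Stx3, the form of ribbon synapses, averaged 19.5 ± 5.31 against 7.10 ± 0.405 FPKM (1.299, adjusted p = 0.000993), and Stx1a averaged 1.80 ± 0.409 against 9.76 ± 2.49 FPKM (-1.93, adjusted p = 1.14e-05). Ctbp2, whose ribeye form builds the ribbon, averaged 54.9 ± 14.8 against 12.4 ± 1.18 FPKM (2.03, adjusted p = 7.2e-05). Slc17a7, a vesicular glutamate transporter, averaged 397 ± 45.5 against 64.3 ± 10.5 FPKM (2.61, adjusted p = 5.5e-07). Rims1, a further member of the list, lay between 0.0347 and 0.390 FPKM in the gland, against 8.80 and 8.16 FPKM (-3.02, adjusted p = 1.38e-08).

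Genes of the circadian clock lay on both sides of the mixed level. Among all genes tested 18.2% were higher and 42.7% lower. The 17 of 23 listed genes found in the table were all tested, 3 were higher and 4 lower, with a median of -0.12; quantile normalization gave 5 and 1, median ratio scaling 4 and 2, and leaving out the mixed library of ZT19 left 1 call, a higher one. Clock, the core activator, averaged 11.1 ± 0.995 FPKM in the gland and 6.47 ± 0.147 FPKM in mixed tissue (0.70, adjusted p = 0.00053). Npas2, which can stand in for Clock, averaged 11.4 ± 3.96 against 3.80 ± 1.05 FPKM (1.33, adjusted p = 0.00351, 0.000166 to 0.0531 over the alternatives). Nfil3, a repressor of the clock output, averaged 2.29 ± 1.26 against 6.80 ± 1.03 FPKM (-1.34, adjusted p = 0.0161, 0.00191 to 0.131).

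Of 10 listed genes of thyroid hormone handling 8 were tested, 1 was higher and 4 were lower, with a median of -0.72. These counts are near the shares of all genes tested, 18.2% higher and 42.7% lower. Dio1, a deiodinase of liver and kidney, lay between 0 and 0.0395 FPKM, against 11.2 and 14.8 FPKM (-3.78, adjusted p = 1.41e-09). It entered the test through the mixed libraries alone, so its lower call was close to set by the filter. Among genes of copper, zinc and iron handling, 18 of 23 listed genes were tested, 3 were higher and 10 lower, with a median of -0.65. Slc39a8 and Slc30a1, zinc transporters, averaged 15.7 ± 6.85 and 25.0 ± 11.01 FPKM in the gland, and 2.65 ± 0.0955 and 7.17 ± 0.184 FPKM in mixed tissue (2.07 and 1.56, adjusted p = 0.0024 and 0.0053). Tf, the iron carrier transferrin, averaged 27.6 ± 8.94 against 688 ± 98.0 FPKM (-4.64, adjusted p = 7.25e-07), and the transferrin receptor Tfrc averaged 3.37 ± 0.521 against 25.0 ± 5.38 FPKM (-2.57, adjusted p = 6.55e-07).

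Marker genes of the pooled organs were nearly all lower in the gland. Most of them entered the test through the 2 mixed libraries, so a lower call was close to set by the filter. Without the mixed library of ZT7, 1 liver gene and 2 skeletal muscle genes were still tested. The liver, kidney and skeletal muscle lists had 10 of 10 tested members lower, with medians of -5.76, -3.32 and -8.16, the heart list 9 of 9 (-6.04) and the small intestine list 7 of 7 (-3.32). The summed levels of the liver list were 0.831 to 9.71 FPKM in the pineal libraries and at least 2527 FPKM in the mixed ones, and those of the skeletal muscle list 0.561 to 4.13 FPKM and at least 4287 FPKM. The growth hormone gene Gh1 was listed at 0 in all 6 pineal libraries and lay at 4887 and 3054 FPKM in mixed tissue (adjusted p = 7.05e-11). Alb, serum albumin, was likewise listed at 0, against 1797 and 1543 FPKM (adjusted p = 5.21e-11). Prl, Scgb1a1, Ahsg and Myl1, of pituitary, lung, liver and muscle, were also listed at 0 in all pineal libraries. Acta1, skeletal muscle actin, lay between 0.0218 and 0.130 FPKM, against 1692 and 1390 FPKM (-10.50 ± 0.12, adjusted p = 5.75e-11).

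The lung list had 8 of 9 tested members lower (Lamp3 did not pass) and the pituitary list 8 of 9 (Tbx19 did not pass), with medians of -4.95 and -6.58. Of 11 tested adrenal genes 10 were lower (median -3.24) and 1 was higher: Chga, chromogranin A of secretory granules, averaged 587 ± 108 FPKM in the gland, against 102 and 71.8 FPKM (2.74 ± 0.22, adjusted p = 3.63e-06). Of 22 tested neuronal genes 20 were lower (median -3.49), among them Nefm, a neurofilament, at 0.165 to 0.707 FPKM against 148.6 and 108.9 FPKM (-6.57, adjusted p = 2.07e-09). The 2 higher ones were Slc17a7, given above, and Snap25, a vesicle fusion protein that also serves endocrine secretion, which averaged 667 ± 82.8 FPKM in the gland and 270 ± 49.3 FPKM in mixed tissue (1.305 ± 0.19, adjusted p = 0.00023).

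Markers of other cell types that a gland can hold were mostly lower. In whole tissue, fewer cells of a type and less RNA per cell cannot be told apart. The oligodendrocyte list had 10 of 10 tested members lower (median -5.13), with Mbp, myelin basic protein, at 1.51 to 7.98 FPKM in the gland against 2498 and 2083 FPKM in mixed tissue (-8.96 ± 0.39, adjusted p = 4.04e-08). Astrocyte genes were lower in 6 of 9 (median -2.68). Among them S100b averaged 21.7 ± 4.49 FPKM against 279.3 and 246.7 FPKM (-3.56, adjusted p = 1.28e-07), while Slc1a2, Gja1 and Vim did not pass. Microglial genes were lower in 11 of 12 (median -1.15), endothelial genes in 8 of 8 (-1.67) and pericyte and smooth muscle genes in 6 of 7 (-1.34). Schwann cell genes were divided, with 4 lower and 2 higher of 7 (median -1.91). Of 3 tested genes of pigment epithelium and melanocytes 2 were lower (-0.97).

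Blood, fibroblast, choroid plexus and mast cell lists did not follow that direction. Of 6 tested blood genes 1 was lower, and the haemoglobin gene Hbb averaged 906 ± 184 FPKM in the gland, against 826 and 1206 FPKM (-0.17 ± 0.28, adjusted p = 0.634). Of 11 fibroblast and meningeal genes 3 were lower and 1 higher (median -0.34), and 5 were lower without the pineal library of ZT13 (-0.45). Of 9 choroid plexus genes 2 were higher, Otx2 and Kcne2, and 2 lower, Aqp1 and Folr1 (median 0.57); without the pineal library of ZT15 3 were lower (0.28), and in the pairs by time 4 were lower (0.06). Otx2 is also a pinealocyte gene. Of 10 listed mast cell genes 4 were tested, Kit and Fcer1a were higher and Mcpt2 was lower, and 6 of the list were under 0.1 FPKM in all pineal libraries. Kit, a receptor tyrosine kinase, ranged from 27.6 to 76.6 FPKM with a median of 75.6, against 8.27 and 6.26 FPKM (2.79 ± 0.43, adjusted p = 0.000384). Fcer1a, the alpha chain of the IgE receptor, stood at 79.4, 9.78, 6.02, 2.31, 163.8 and 134.4 FPKM from ZT1 to ZT23, against 0.563 and 0.281 FPKM (4.29 ± 1.48, adjusted p = 0.0309, 0.00466 to 0.142 over the alternatives). Its call was lost without the pineal library of ZT1, without either mixed library and with a pseudocount of 5 FPKM.

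**Figure D4:**
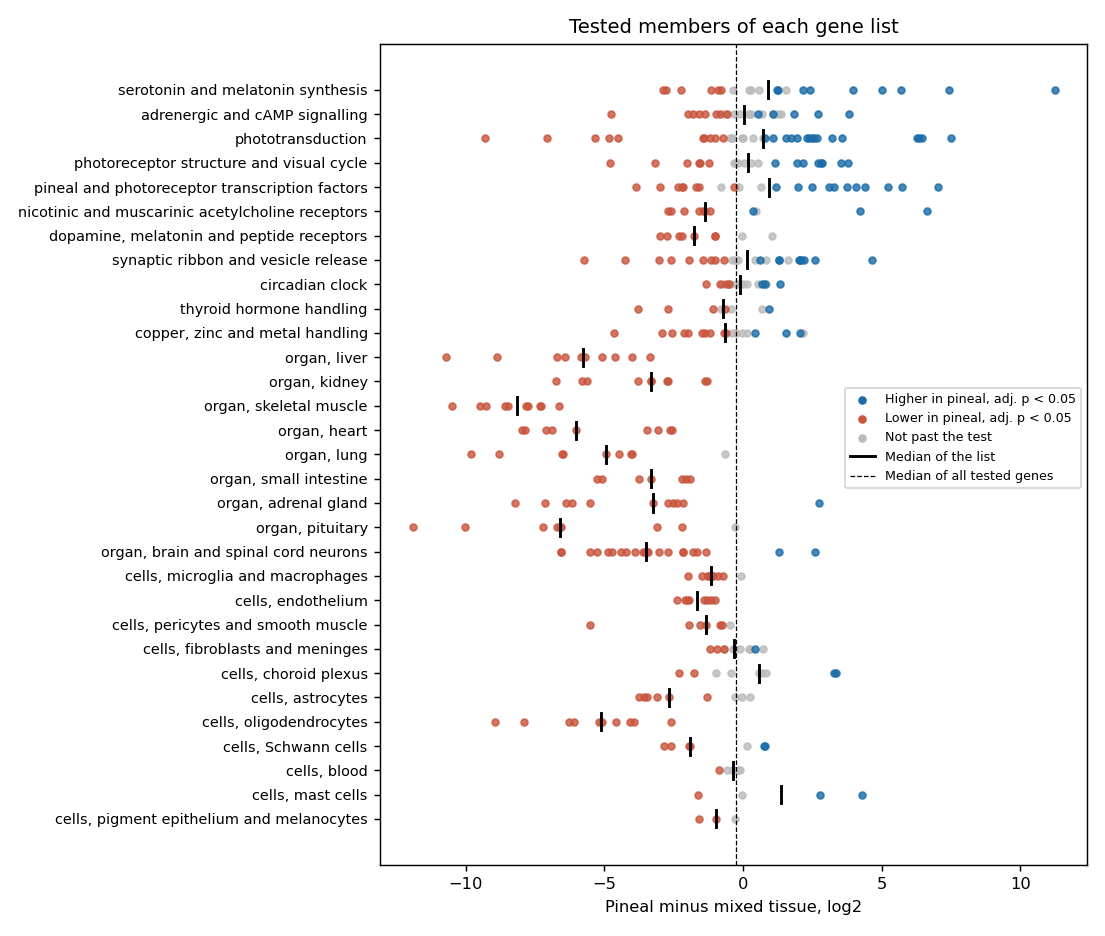
Difference between pineal gland and mixed tissue (horizontal axis, log2) for the tested members of the 31 gene lists (rows). Blue points are genes higher in the pineal gland and red points genes lower, each past the test, grey points did not pass, black bars are list medians, and the dashed line is the median of all genes at -0.25. Called members of the pathway lists lie on both sides, except in the dopamine, melatonin and peptide receptor list, where all lie to the left. The called members of the organ lists lie to the left, with the exceptions of Chga, Slc17a7 and Snap25.

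The pineal libraries were not alike in these markers. In the library of ZT15 the choroid plexus list summed to 3878 FPKM, against 836 to 1359 FPKM in the other pineal libraries, and 7 of 9 members were highest there. Most of this was Ttr, the thyroxine carrier transthyretin, with 3566 FPKM at ZT15 and 664 to 1152 FPKM in the other pineal libraries, against 760 and 755 FPKM in mixed tissue (0.68 ± 0.52, adjusted p = 0.289). In the library of ZT13, 10 of 11 microglial, 10 of 11 fibroblast and meningeal, 6 of 8 endothelial, 7 of 9 astrocyte and 5 of 6 oligodendrocyte genes at 1 FPKM or more were at their highest. Other lists were less often at their highest at ZT13: 3 of 5 pericyte and smooth muscle, 3 of 6 Schwann cell and 4 of 6 blood genes. The same held for 5 of 9 neuronal, 1 of 9 choroid plexus and 0 of 3 mast cell genes. That library also had the most genes at 1 FPKM or more, 9336, and the share of all genes highest there was not counted. The part of all these cells in the differences given above was not tested. Leaving out either library left 1909 (ZT13) and 1908 (ZT15) genes higher and 4859 and 4886 lower, and the genes over 15-fold higher stayed between 41 and 49 in number whichever single library was left out.

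Pairs of libraries collected at the same time gave the comparison without the mixture of times, 1 library against 1, and therefore as values with no test. The difference was 2 or more (log2) for 231 genes at ZT7 and 280 at ZT19, and for 163 in both pairs. It was -2 or less for 1583 and 1477 genes, and for 1323 in both. Of the 233 genes called at least 4-fold higher 159 reached 2 in both pairs, and of the 1432 called at least 4-fold lower 1295 reached -2 in both. The pairs reuse libraries that made these calls, so the counts are no separate check. By their definition the 41 genes over 15-fold higher exceed that ratio of FPKM in both pairs. On the log2(FPKM + 1) scale 35 of them reached 2 in both. The differences of both pairs, which share no library, correlated at 0.93 across genes, which are not independent replicates. With the 4 libraries fitted in pairs by time, 1448 genes were higher and 4528 lower, and 48 were over 15-fold higher.

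Mid-day and mid-night differed by 1 or more for 663 genes and by 2 or more for 108. The largest shifts toward the gland at ZT19 belonged to Slc15a1, Aanat, Atp7b, Sik1, Dclk3 and Crem. Slc15a1, an oligopeptide transporter, lay at 0.708 FPKM in the gland and 6.57 FPKM in mixed tissue at ZT7, and at 270.0 against 2.47 FPKM at ZT19, so that its difference was -2.15 at mid-day and 6.29 at mid-night. It was the 1 gene with 2 or more in each direction. Atp7b, a copper-transporting ATPase, lay at 2.48 against 2.15 FPKM at ZT7 and at 139.4 against 2.85 FPKM at ZT19. Sik1, a kinase induced by cAMP, lay at 1.80 against 4.16 FPKM and at 68.3 against 3.27 FPKM, and Crem, which includes an inducible repressor of cAMP response genes, at 5.18 against 7.96 FPKM and at 179.2 against 8.32 FPKM. Dclk3, a doublecortin-like kinase, lay at 3.13 against 2.29 FPKM and at 106.0 against 1.97 FPKM. The pineal level of each was far higher at ZT19 than at ZT7, and no mixed level reached 9 FPKM. In the comparison of 6 pineal with 2 mixed libraries, Slc15a1, Atp7b, Sik1, Dclk3 and Crem did not pass the test (adjusted p = 0.575, 0.367, 0.691, 0.204 and 0.365).

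Of the 18 genes that were 1 or more in one direction at one time and 1 or more in the other at the other, 17 were lower in the gland at ZT7 and higher at ZT19. They included Dio2, the deiodinase that activates thyroid hormone (0.498 against 2.27 FPKM at ZT7, and 25.4 against 2.28 FPKM at ZT19), Irs2, an insulin receptor adaptor (2.79 against 8.91 FPKM, and 85.7 against 9.08 FPKM), and Dusp1, a phosphatase of MAP kinases (2.81 against 27.5 FPKM, and 70.4 against 19.3 FPKM). The exception was Ptpn21, a tyrosine phosphatase, at 18.0 against 6.15 FPKM at ZT7 and 2.03 against 5.66 FPKM at ZT19. These 4 were named after their values were seen.

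The largest shifts in the other direction were of different make. S100g, an intestinal and renal calcium-binding protein, and LOC691352 were listed at 0 in all pineal libraries, and their mixed levels were 28.5 FPKM at ZT7 and 415.8 FPKM at ZT19 for S100g, and 15.1 and 148.4 FPKM for LOC691352. Cela3b, a pancreatic elastase, and Rnase1, a pancreatic ribonuclease, also differed between the mixed libraries, with 0.634 and 10.9 FPKM for Cela3b and 0.105 and 6.07 FPKM for Rnase1 at ZT7 and ZT19, and both were under 1.5 FPKM in each pineal library. Ccl9 and Ndrg1 differed within the gland. Ccl9, a chemokine, lay at 25.0 FPKM in the gland against 12.9 FPKM at ZT7 and at 2.40 against 21.7 FPKM at ZT19, and Ndrg1, a stress-responsive gene, at 97.8 against 74.7 FPKM and at 15.7 against 88.7 FPKM.

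**Figure D5:**
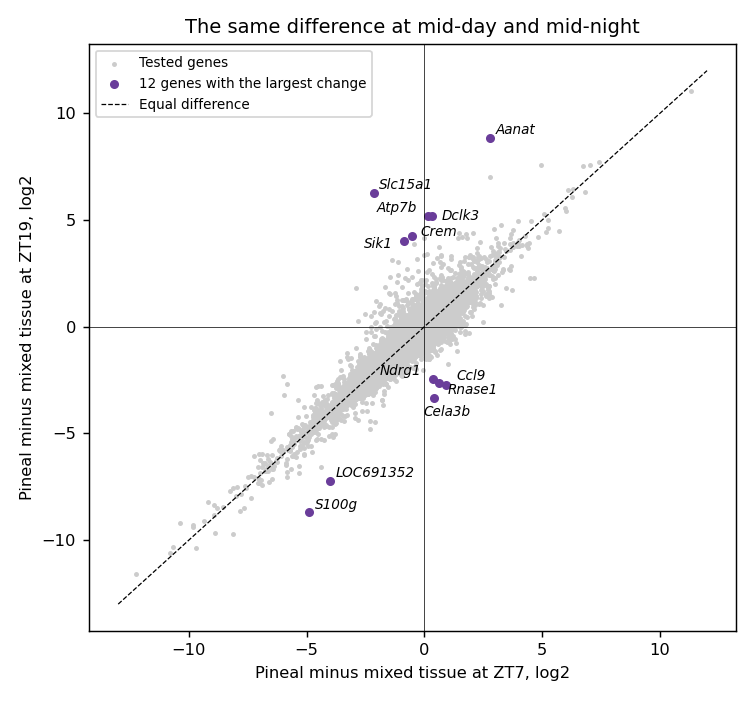
Difference between pineal gland and mixed tissue at ZT19 (vertical axis, log2) against that at ZT7 (horizontal axis, log2) for the 11426 genes tested (grey points), with the 12 genes of the largest shift in purple and a dashed line of equal differences. Most genes follow the line; Slc15a1, Aanat, Atp7b, Dclk3, Crem and Sik1 lie above it and S100g and LOC691352 below it at the lower left.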

How the data were processed

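Polyadenylated RNA was sequenced from pools of rat tissue, per the labels' protocols from 10 µg of total RNA with random priming and 16 cycles of PCR, 6 libraries to a lane, as 101-base paired ends. TopHat 1.3.1 and Cufflinks 1.2.0 are listed, with the rn4 build, in the submitters' processing notes. The deposited values are FPKM per RefSeq transcript, made by the authors. The table held 16932 transcripts. Their FPKM values were summed per gene ID to 16472 genes, of which 342 had several transcripts, and 11 transcripts without a gene ID stood alone. A RefSeq table of GRCr8, which held 16299 of the gene IDs, gave promoter windows and repaired 24 date-like symbols. Gene positions printed in rn4 come from the deposited table. No source used here says whether reads keep strand, so overlapping and antisense genes, like near-identical family members, are uncertain.

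Levels were tested as log2(FPKM + 1), which understates the change of low genes, with limma (version 3.58.1, R 4.3.3; two-sided, with moderated variances that follow a trend on the mean), 6 pineal against 2 mixed libraries without covariates, on 11426 genes that reached 1 FPKM in 2 or more of the 8 libraries. P-values were adjusted over every gene tested by Benjamini and Hochberg's method, with 0.05 as threshold. The error has 6 residual degrees of freedom. No label says how separate the pools were, so p-values measure only the spread between these libraries. The labels give no replicate numbers that pair the groups, and libraries of the same time were paired in an alternative. Lists are described by counts and medians. The comparison, the lists (31) and the named genes were chosen with earlier results of these data known. Named genes are the 12 largest non-overlapping differences each way, the 4 largest called members of each pathway list and a few key genes, the 2 most abundant members of each organ or cell type list in the group where that list is higher, the 6 largest shifts between the pairs each way and the 5 steadiest genes over 15-fold higher; further list members are given to describe their list. Alternatives were pseudocounts of 0.1 and 5 FPKM, no filter or one of 5 FPKM, quantile normalization, median ratio scaling, the retina as a further group, limma without the trend, pairing by time, and leaving out each library. A few genes that these rules pick are not reported here.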

Additional observations from a re-analysis of the deposited data

Results flagged for a closer look

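In 4 of the 105 named genes 1 of the 6 pineal libraries stood apart from the other 5 by more than Dixon's limit on the log2(FPKM + 1) scale. This rule flags about 1 in 20 groups by chance, so as many flags can arise by chance among this many genes. Ttr was at 3566 FPKM in the ZT15 library, against 664 to 1152 FPKM in the others. Mt3, a metallothionein, was at 102.4 FPKM in the ZT23 library, against 51.8 to 62.8 FPKM. Tagln, a smooth muscle protein, was at 19.3 FPKM in the ZT13 library, against 10.0 to 12.7 FPKM. Hbb was at 569 FPKM in the ZT19 library, against 880 to 1090 FPKM, and there the summed blood list was also at its pineal minimum, 1071 FPKM.

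The difference between gland and mixed tissue had opposite signs at ZT7 and ZT19 in 9 named genes. All but Hbb and Ptgds were named for the largest shifts between the pairs, so their opposite signs follow in part from that choice. The share of all genes tested with opposite signs was not counted. With 1 library per tissue and time, the change between the times was not tested. Slc15a1 had -2.15 at ZT7 and 6.29 at ZT19, Sik1 had -0.88 and 4.02, and Crem had -0.54 and 4.27. Cela3b had 0.42 and -3.35, Ccl9 had 0.90 and -2.74, Rnase1 had 0.60 and -2.65, and Ndrg1 had 0.38 and -2.43. Hbb had 0.33 and -1.08, and Ptgds, a prostaglandin synthase of the meninges, had 0.05 and -0.34.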

How the results depend on the processing

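Of 1712 values of the 105 named genes under 17 alternatives, 1670 kept direction and side of the threshold, 33 were no longer past it, 4 newly passed and 5 changed sign; 92 genes kept both under each alternative that tested them; most organ genes were not tested without a mixed library. The signs that changed were those of Slc16a10 (0.0077 after quantile normalization), Hbb (0.31 after quantile normalization, 0.067 after median ratio scaling, and 0.11 without the mixed library of ZT19, against -0.44 without that of ZT7) and Rnase1 (0.72 without the mixed library of ZT19, against -1.95 without that of ZT7). Counts depended more on the settings. Quantile normalization gave 4946 genes higher, 404 at least 4-fold higher, 946 at least 4-fold lower and 123 over 15-fold higher, and median ratio scaling gave 3149 higher. A pseudocount of 5 FPKM gave 123 at least 4-fold higher and 442 at least 4-fold lower, a pseudocount of 0.1 FPKM gave 2392 at least 4-fold lower, and a filter of 5 FPKM gave 2983 lower. Leaving out single libraries gave 3667 to 7135 genes called, 1191 to 2256 higher, 2165 to 4886 lower, 197 to 248 at least 4-fold higher, 468 to 1468 at least 4-fold lower and 41 to 49 over 15-fold higher. The low ends of the total and of both counts of lower genes, and of higher genes, are those without a mixed library, where 9652 and 9668 genes were tested and the remaining mixed library was assumed to vary like the gland's; without the ZT19 mixed library 1191 were higher and 3768 called. The replicate block by time of day gave 1448 higher and 4528 lower, 227 at least 4-fold higher and 1517 lower, with 1 residual degree of freedom; it removed the calls of Rora and Cela3b among the named genes and changed no other. The cause was not tested where none is given. FPKM hold no depth, so the precision of low values is unknown.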
